A study of Mus musculus with 14 samples.

Results

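The genes described here code for nuclear-encoded subunits of the mitochondrial respiratory chain and ATP synthase, and for 8 assembly factors of complex I. They were chosen by name, as every gene on the array whose platform symbol begins with Nduf, Uqcr, Cox4 to Cox8 or Atp5, together with Sdha, Sdhb, Sdhc and Sdhd and without Ndufa4l2. There were 89 such genes among 18194 genes with a probe set of 1 symbol, and each was read by its brightest probe set. Of the 89, 87 reached a signal of 200 on at least 1 of the 14 arrays and were tested. The other 2, Ndufb4 and Cox7b2, had highest osteosarcoma signals of 70.2 and 160, values too dim to separate from background.

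The Affymetrix arrays held total RNA of 1 tumour labelled rhabdomyosarcoma, of 12 osteosarcomas and of mc3T3. All 13 tumours arose in p53+/- mice, which carry 1 working copy of the p53 tumour suppressor, and no treatment is given for them. The control, mc3T3, is a mouse osteoblast line described as non-tumorigenic, grown in culture in alpha-MEM with 10% serum and not treated; it is 1 array of cultured cells set against tissue. Ages, sexes and whether the tumours came from separate animals are not given in the labels. Osteosarcomas were numbered 1 to 12 for this work, and their identifiers begin with c in 4, m in 6 and o in 2. The identifier of the tumour labelled rhabdomyosarcoma begins with m as well. The labels do not explain these letters.

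The osteoblast marker Ibsp is a bone matrix protein. It had 155 signal units in the tumour labelled rhabdomyosarcoma, 30210 to 49087 in the osteosarcomas and 37.4 in mc3T3. Other osteoblast markers did not all follow it. Of 8 tested, 6 were higher in the osteosarcoma mean than in mc3T3 and 2 were lower. Col1a1 had 62259 units in mc3T3, above the highest osteosarcoma at 58684. Sp7 had 1515 units in mc3T3, within its osteosarcoma range of 1158 to 4132. The rhabdomyosarcoma label was checked as well: its signals of the muscle lineage genes Myod1, Myog and Des were 39.4, 65.9 and 88.6 units, so the markers that would define its label were near the signal of mc3T3 (23.8, 58.9 and 81.4 units). Osteosarcomas 6 and 9 stood apart in skeletal muscle genes, and the results that rest on them are given with and without them. Bulk RNA cannot separate fewer cells of a type from less RNA per cell.

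The respiratory chain moves electrons from NADH through complex I, and from succinate through complex II, to complex III and on to oxygen at complex IV, while protons are pumped across the inner mitochondrial membrane. ATP synthase makes ATP as the protons flow back. Most complex IV subunits are used in every tissue, but a few have a muscle-type isoform: Cox6a2, Cox7a1 and Cox8b are known from heart and skeletal muscle, where they take the place of Cox6a1, Cox7a2 and Cox8a.

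The promoters of both kinds of isoform are shown, because these genes behaved differently across the tumours. Cox6a2 is left out, as it had no RefSeq promoter entry. The promoters of Sdhb and Atp5k, which rose in the osteosarcomas, are shown as well, and not those of the other genes that rose. Each run holds the 250 bases before the gene's start, 5' to 3' on the coding strand, from RefSeq on GRCm38.p6. Capitals mark matches on either strand to the NRF1 core GCGCATGC, the ETS motif CCGGAAG or the E-box CAGCTG, and no other motif of those searched matched within these runs. The ETS match of Cox8a runs across the start, so only its first bases are in capitals at the end of the run.
Cox7a1, chr7:30183921-30184170, plus strand: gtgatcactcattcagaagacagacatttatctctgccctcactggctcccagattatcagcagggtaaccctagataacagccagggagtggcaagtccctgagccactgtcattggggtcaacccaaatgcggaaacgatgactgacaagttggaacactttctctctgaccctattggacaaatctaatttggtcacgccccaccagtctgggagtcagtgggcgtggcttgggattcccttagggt
Cox8b, chr7:140900447-140900696, minus strand: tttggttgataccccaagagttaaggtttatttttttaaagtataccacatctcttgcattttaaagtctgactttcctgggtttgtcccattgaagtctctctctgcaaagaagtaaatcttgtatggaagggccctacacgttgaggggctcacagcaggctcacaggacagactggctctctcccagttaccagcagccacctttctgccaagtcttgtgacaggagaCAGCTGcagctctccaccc
Cox7a2, chr9:79759854-79760103, minus strand: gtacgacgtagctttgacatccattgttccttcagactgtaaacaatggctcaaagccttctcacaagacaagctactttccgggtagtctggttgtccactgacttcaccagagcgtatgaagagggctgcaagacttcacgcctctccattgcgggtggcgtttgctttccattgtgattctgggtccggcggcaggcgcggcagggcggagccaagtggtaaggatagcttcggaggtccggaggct
Cox8a, chr19:7217617-7217866, minus strand: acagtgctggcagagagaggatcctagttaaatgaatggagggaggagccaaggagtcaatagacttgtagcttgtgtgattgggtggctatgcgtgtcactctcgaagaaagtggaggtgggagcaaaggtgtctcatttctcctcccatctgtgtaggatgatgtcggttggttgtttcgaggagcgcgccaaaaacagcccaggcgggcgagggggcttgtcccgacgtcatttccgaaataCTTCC
Cox6a1, chr5:115348959-115349208, minus strand: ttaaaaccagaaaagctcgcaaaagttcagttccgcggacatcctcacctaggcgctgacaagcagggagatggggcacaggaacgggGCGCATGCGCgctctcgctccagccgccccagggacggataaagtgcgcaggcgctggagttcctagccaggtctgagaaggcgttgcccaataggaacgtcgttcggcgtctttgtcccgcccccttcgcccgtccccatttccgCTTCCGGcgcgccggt
Sdhb, chr4:140961021-140961270, plus strand: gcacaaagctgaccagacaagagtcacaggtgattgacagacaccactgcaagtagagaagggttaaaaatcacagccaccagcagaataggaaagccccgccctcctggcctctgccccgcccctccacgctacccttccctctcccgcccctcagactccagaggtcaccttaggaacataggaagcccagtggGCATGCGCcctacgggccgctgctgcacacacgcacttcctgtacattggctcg
Atp5k, chr5:108434400-108434649, minus strand: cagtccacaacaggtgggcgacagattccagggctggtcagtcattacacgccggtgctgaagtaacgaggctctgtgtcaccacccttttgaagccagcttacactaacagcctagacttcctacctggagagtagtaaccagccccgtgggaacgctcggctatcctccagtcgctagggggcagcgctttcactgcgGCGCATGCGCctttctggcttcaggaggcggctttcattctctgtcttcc

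Of the 89 genes, 74 matched a RefSeq promoter, and motifs were counted over 250 bases before and 50 after the start. The NRF1 core stood in 14.9% of these promoters, against 3.05% of 27025 genes. The ETS motif stood in 25.7% against 9.93%, and the YY1 motif AAGATGGC in 13.5% against 3.19%. NRF1, ETS-family and YY1 proteins are transcription factors known for binding promoters of mitochondrial genes. The estrogen-related receptor motif TCAAGGTCA was found in 2.70% against 0.466%.

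For motifs known from muscle and other tissue-restricted promoters the shares ran the other way. The E-box CAGCTG stood in 8.11% against 18.3%, TATAAA in 10.8% against 15.7%, and the MEF2 motif in 0% against 3.70%. The muscle-type Cox6a2 was not among the genes searched. The Cox8b run holds an E-box at positions -19 to -14 relative to the start, and a second lies at 16 to 21. A TATAAA match of Cox8b lies after the start, at 4 to 9. Cox6a1 has overlapping NRF1 core matches at -162 to -155 and -160 to -153 and an ETS match at -16 to -10. Sdhb has an NRF1 core match at -54 to -47 and Atp5k overlapping matches at -50 to -43 and -48 to -41. Cox7a1 and Cox7a2 had no match in the window. Uqcr10, which also rose in the osteosarcomas and is not printed, had none either. A match is a run of letters and not a shown binding site.

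The first comparison asks how the osteosarcomas differ from cultured osteoblasts. Of the 87 genes, 4 rose in the osteosarcomas and 1 fell, by the test of limma with an adjusted p under 0.05 and a difference of at least 1 on the log2(signal + 30) scale. Those that rose were Atp5k, Uqcr10, Ndufa2 and Sdhb, 1 from each of ATP synthase and complexes III, I and II; the 1 that fell was Ndufaf2, an assembly factor of complex I. Over all 11815 genes tested, 8.59% were called higher and 4.58% called lower, so the share of these genes called was below the background in both directions. In 30 of the 87, all 12 osteosarcomas lay above mc3T3, against 21.5% of all genes. In 4 of the 87 all 12 lay below it, against 21.0% of all genes. In all, 59 of the 87 differences lay above 0 with a median of 0.34, beside 48.8% and a median of -0.02 over all genes. A set of 785 other genes with a mean osteosarcoma signal of at least 5000 leaned the same way: 40.3% of them lay above their osteosarcoma mean in mc3T3, with a median deviation of -0.21, beside 33.3% and -0.32 for these genes without the muscle-type subunits. None of the 5 calls held with the 4 c tumours alone. Uqcr10, Ndufa2 and Ndufaf2 also lost theirs with the 6 m tumours alone.

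**Figure D1:**
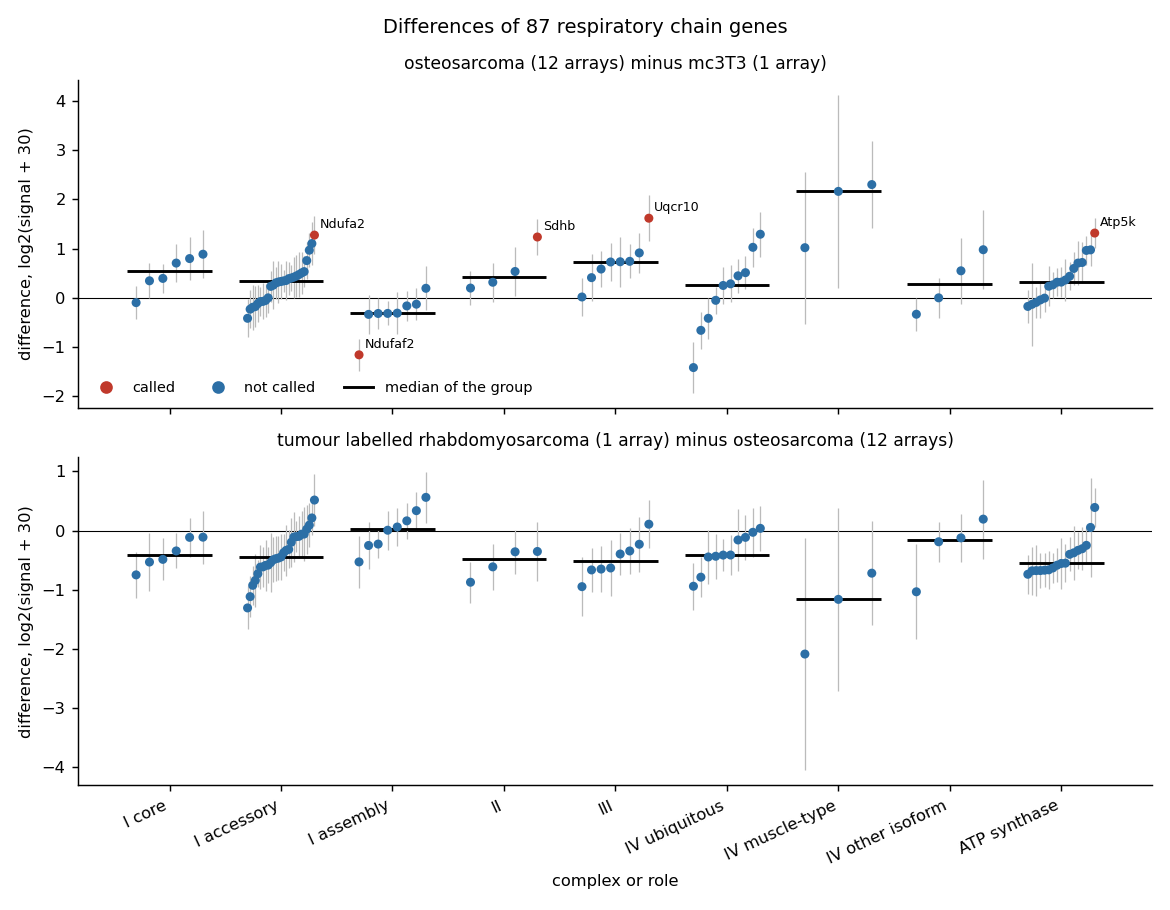
Difference of each of 87 genes on the log2(signal + 30) scale (y axis, bars are standard errors) by complex or role (x axis), for osteosarcoma minus mc3T3 (upper panel) and the tumour labelled rhabdomyosarcoma minus osteosarcoma (lower panel). Red points were called and thick lines are group medians; 4 genes were called higher and 1 lower in the upper panel, and 0 in the lower.

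In complex I, 23 of 33 core and accessory subunits lay above mc3T3, with a median difference of 0.34. Ndufa2, an accessory subunit, had osteosarcoma signals of 8396 to 21158 with a median of 10873, against 4675 in mc3T3. No osteosarcoma overlapped mc3T3, and the means differed by 1.27 ± 0.38 (SE, limma adjusted p = 0.0388). Its call was lost without osteosarcoma 1, 9 or 10 (adjusted p = 0.0503 to 0.0516). Among the 6 core subunits, which carry the redox centres, 5 lay above 0 with a median of 0.55 and none was called. Ndufs7, an iron-sulfur subunit, had 3119 to 9473 with a median of 5377 in the osteosarcomas, against 2869 in mc3T3, a difference of 0.89 ± 0.49 (SE, adjusted p = 0.268). Ndufs8 and Ndufs1, also iron-sulfur subunits, differed by 0.80 and 0.70. The further tested probe sets of Ndufs8 gave smaller differences, from -0.73 to 0.49.

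The 8 complex I assembly factors, which help build the complex and are not part of it, lay the other way. Only Ndufaf6 of the 8 was above mc3T3, and their median difference was -0.32. Ndufaf2 had 480 to 895 with a median of 682 in the osteosarcomas, against 1508 in mc3T3. All 12 tumours were below mc3T3, with a difference of -1.16 ± 0.33 (SE, adjusted p = 0.0303). Ndufaf1 also lay below mc3T3 in all 12 tumours, at 705 to 994 units against 1111, but its difference of -0.32 ± 0.24 (SE) was not called (adjusted p = 0.424). A wider list of 35 tested assembly genes of all complexes held 15 above 0 and 20 below. Beside 8.59% and 4.58% of all genes, 0 of the 35 were called higher and 1 lower. That 1 was Acad9, a complex I assembly protein, at 477 to 828 units in the osteosarcomas against 1371 in mc3T3 (difference -1.09 ± 0.32, SE, adjusted p = 0.0382); without osteosarcoma 3 or 10 it was not called (adjusted p = 0.0524 and 0.0525).

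All 4 subunits of complex II, succinate dehydrogenase, lay above mc3T3 in their means, and 1 was called. Sdhb, the iron-sulfur subunit, had 8570 to 18718 with a median of 12695 in the osteosarcomas, against 5329 in mc3T3. Every tumour was above mc3T3, by 1.24 ± 0.37 on average (SE, adjusted p = 0.0393). Its call was lost without osteosarcoma 5, 6, 8, 10 or 11 (adjusted p = 0.0504 to 0.0529). Sdha, the flavoprotein subunit, had 3326 to 9833 with a median of 6054, against 4245 in mc3T3. By their brightest probe sets the membrane anchors were closer to mc3T3. Sdhc had 2555 to 5504 with a median of 4535, against 3804 in mc3T3. Sdhd had 2730 to 7177 with a median of 4988, against 3810. For each of Sdha, Sdhc and Sdhd, 10 of 12 tumours were above mc3T3, and the differences of 0.53, 0.20 and 0.31 were not called. These sizes depended on the probe set. Further tested probe sets differed by 1.20 and, for a dim one, -0.98 for Sdha, by -0.17 for Sdhc and by 1.17 for Sdhd.

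In complex III, 8 of 8 differences were above 0, with a median of 0.73. In 5 of the 8 all tumours lay above mc3T3, against 21.5% of all genes. Uqcr10, a small subunit, had 5523 to 15973 with a median of 8024 in the osteosarcomas, against 2819 in mc3T3. Its difference was 1.62 ± 0.47 (SE, adjusted p = 0.0335), and its 2 further tested probe sets differed by 2.07 and 1.62. The core proteins Uqcrc1 and Uqcrc2 differed by 0.58 and 0.73 and the Rieske iron-sulfur protein Uqcrfs1 by 0.73, none of them called. Cyc1, the cytochrome c1 of the same complex, which the naming rule does not take in, had 6545 to 15149 units against 4377 in mc3T3 and missed the call as well (difference 1.21 ± 0.40, SE, adjusted p = 0.0567). Uqcrb, at 23886 to 52719 with a median of 36178 against 35973 in mc3T3, differed by 0.01.

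Of the 10 ubiquitous complex IV subunits, 6 lay above mc3T3 and 4 below, with a median of 0.27 and 0 called. Cox5a, which binds regulators of the enzyme, differed by 1.03 ± 0.40 (SE, adjusted p = 0.108) and Cox7a2 by 1.29 ± 0.46 (SE, adjusted p = 0.0815); Cox7a2 was called without osteosarcoma 1 (adjusted p = 0.0456). Cox8a lay below mc3T3 in all 12 tumours, at 3948 to 7686 with a median of 5347 against 8721. Its difference of -0.67 ± 0.38 (SE) was not called (adjusted p = 0.273). Cox7c also lay below in all 12 tumours, but its probe set was dim: 46.3 to 177 in the osteosarcomas against 335 in mc3T3. It reached the testing signal of 200 in mc3T3 alone, so it entered these counts only through the array where it was high. Cox4i1, a central nuclear-encoded subunit, differed by 0.28 and Cox6a1 by -0.05.

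Of 17 ATP synthase subunits, 12 lay above mc3T3, with a median of 0.32. Atp5k, a membrane subunit, had 11885 to 21816 with a median of 14419 in the osteosarcomas, against 5909 in mc3T3. Its difference of 1.32 ± 0.31 (SE) had the lowest adjusted p of the 87 genes, 0.0105, and its 2 further tested probe sets differed by 2.02 and 1.06. Atp5pb, of the peripheral stalk, passed the p threshold (adjusted p = 0.0392) with a difference of 0.96 ± 0.29 (SE), under the size needed for a call. Atp5o, of the same stalk, differed by 0.97 ± 0.32 (SE, adjusted p = 0.0587). The further tested probe set of Atp5pb differed by only 0.28 and that of Atp5o by 0.29. The subunits Atp5a1 and Atp5b differed by 0.44 and 0.32. The further tested probe sets of Atp5a1 differed by 1.26 and, for a dim one, 0.20.

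Of the muscle-type subunits, Cox7a1 and Cox8b had the largest differences of the 87 genes, with wide errors. All 3 muscle-type subunits reached the testing signal of 200 in osteosarcomas alone, so they were tested only through the group where they were high. Of these 3, 2 are among the 30 genes above mc3T3 in all 12 tumours. Cox7a1 lay above mc3T3 in all 12 tumours, with 51.0 to 1206 units and a median of 270.0 against 27.8. Its difference of 2.30 ± 0.88 (SE) was not called (adjusted p = 0.102). Cox8b differed by 2.16 ± 1.97 (SE, adjusted p = 0.514) and Cox6a2 by 1.02 ± 1.55 (SE, adjusted p = 0.717). Without osteosarcomas 6 and 9 the differences were 1.38 for Cox8b, 0.42 for Cox6a2 and 2.05 for Cox7a1, none called (limma adjusted p = 0.449, 0.805 and 0.0681). A pseudocount of 100 in place of 30 gave 1.34 for Cox8b and 1.52 for Cox7a1. Without osteosarcoma 7, which had its lowest tumour signal, Cox7a1 was called (adjusted p = 0.0386).

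Each osteosarcoma was next set against the osteosarcoma mean of each gene, leaving out the muscle-type subunits. Osteosarcomas 4 and 12 lay above that mean in 80 and 78 of 84 genes, and osteosarcomas 6 and 10 in 67 each. Osteosarcoma 2 lay above it in 4 of 84, osteosarcomas 1 and 9 in 16 each, osteosarcoma 3 in 17 and osteosarcoma 7 in 25. The rest, osteosarcomas 5, 8 and 11, lay above it in 31, 45 and 47 genes. Over all genes tested, each of the 12 tumours was above the mean in 43.3% to 55.4%. The tumours therefore differed in the direction most of these genes shared, and osteosarcoma 12 held the highest signal of 35 genes and osteosarcoma 4 of 28. The lowest signal was in osteosarcoma 2 for 24 genes, in osteosarcoma 1 for 20 and in osteosarcoma 7 for 16.

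The shift was of modest size and ran through all complexes. In osteosarcoma 12 the median deviation was 0.42 over the 84 genes, 0.56 for complex III, 0.44 for ubiquitous complex IV, 0.43 for ATP synthase and 0.27 for the assembly factors. In osteosarcoma 4 these medians were 0.40, 0.53, 0.46, 0.35 and 0.20. In osteosarcoma 2 they were -0.34, -0.50, -0.43, -0.32 and -0.09. Osteosarcomas 5, 6, 8, 9, 10 and 12, with m identifiers, had 16 to 78 genes above the mean. The o pair, osteosarcomas 3 and 4, had 17 and 80. The c tumours, osteosarcomas 1, 2, 7 and 11, had 16, 4, 25 and 47. The ranges of the letters overlapped, but osteosarcomas 1, 2 and 7, which held the lowest signal of the most genes, all have c identifiers. The part of the letter in the shift was not tested.

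**Figure D2:**
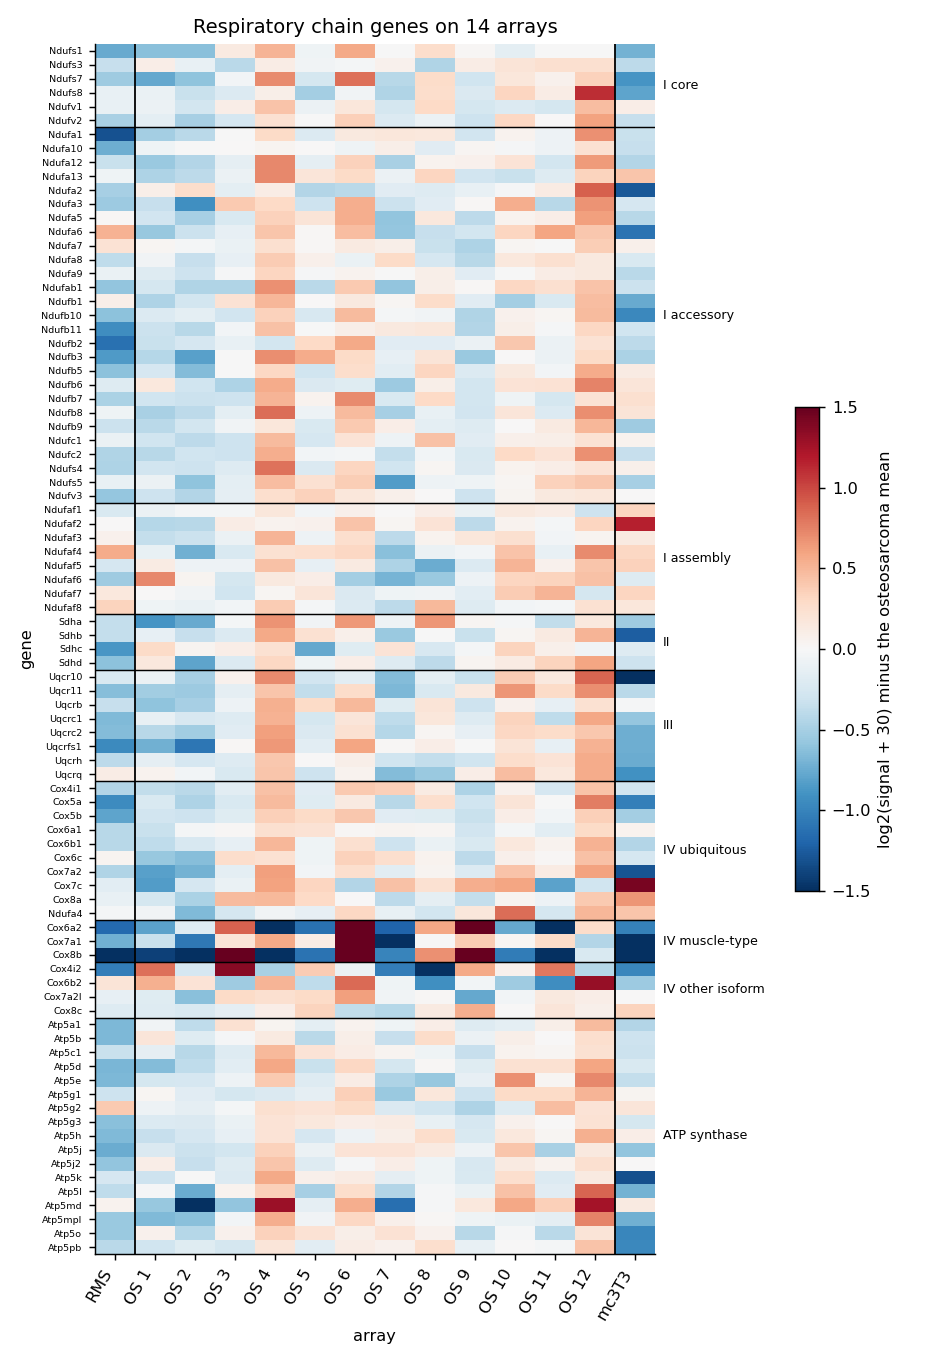
Colour gives log2(signal + 30) minus the gene's osteosarcoma mean for 87 genes (y axis, grouped by complex or role) on 14 arrays (x axis; RMS is the tumour labelled rhabdomyosarcoma, OS an osteosarcoma), with colours ending at 1.5 either way. Columns OS 4 and OS 12 are mostly red and OS 2 mostly blue, and the muscle-type rows carry the widest colours.

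Other measures moved with this shift. The beta-actin 3' to 5' ratio, which rises as RNA breaks down, was 2.13, 1.97, 1.85 and 1.71 in osteosarcomas 12, 6, 4 and 10, the same 4 tumours that had the most genes above the mean. It was 1.42 to 1.62 in the other 8. The same ratio of Gapdh did not follow the counts: it was 0.770, 0.937, 0.833 and 1.03 in osteosarcomas 12, 6, 4 and 10, and 0.736 to 0.897 in the other 8. The mean level of 12 osteoclast markers, all 12 of them tested, was 12.63, 12.60, 12.29 and 12.26 on the log2(signal + 30) scale in osteosarcomas 4, 12, 6 and 10, and lowest in osteosarcoma 1 at 10.89. Osteosarcoma 8, with 45 of 84 genes above the mean, had 12.36, above osteosarcomas 6 and 10. Osteoclasts are the bone-resorbing cells of the macrophage lineage and are known for many mitochondria.

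Bright genes of other kinds did not always follow the 84 genes, of which 92.9%, 95.2% and 4.76% lay above the mean in osteosarcomas 12, 4 and 2. Of 785 other genes with a mean signal over 5000, 70.8% lay above their osteosarcoma mean in osteosarcoma 12, 56.9% in osteosarcoma 4 and 36.4% in osteosarcoma 2. In osteosarcoma 9 both were low, 16 of the 84 genes and 23.6% of the other bright genes, and in osteosarcoma 5 they were 31 of 84 and 64.3%. The mean level of 8 tested proliferation markers was 9.08 in osteosarcoma 12 and 10.40 to 10.95 in the other 11. The part of RNA quality, osteoclast content or cell division in the shift was not tested.

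**Figure D3:**
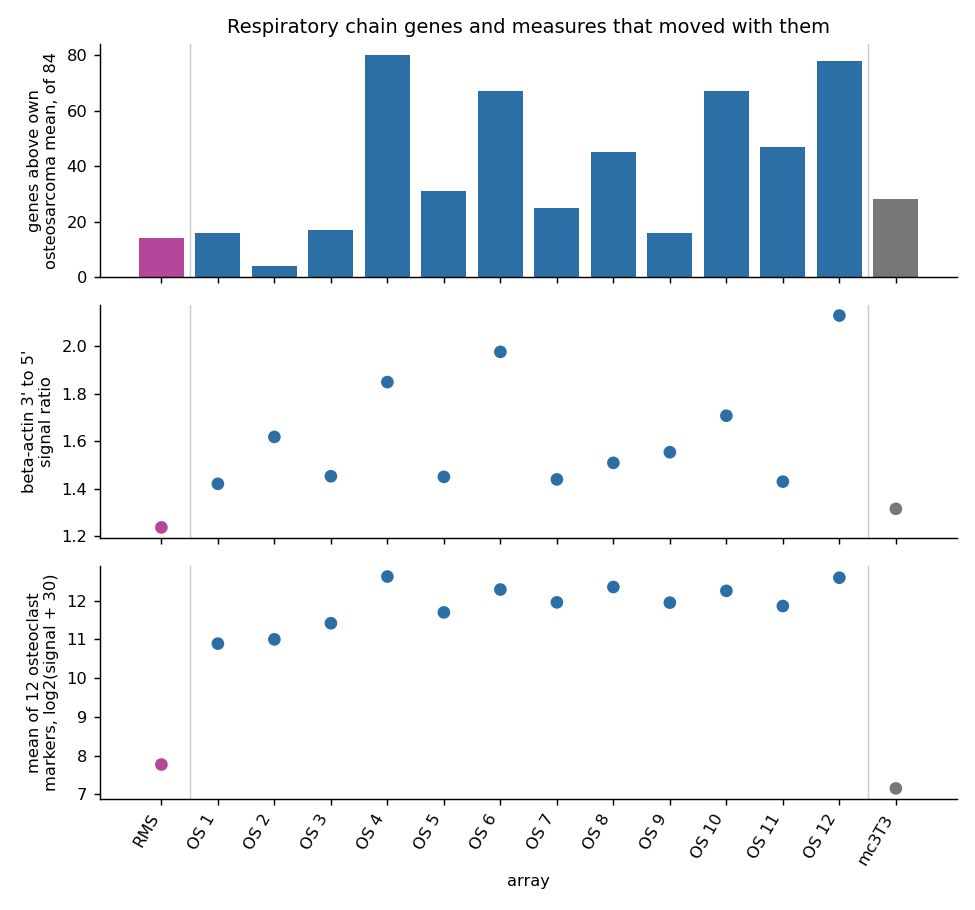
For each array (x axis; RMS is the tumour labelled rhabdomyosarcoma, OS an osteosarcoma), the number of 84 genes above their osteosarcoma mean (top), the beta-actin 3' to 5' signal ratio (middle) and the mean log2(signal + 30) of 12 osteoclast markers (bottom). Osteosarcomas 4, 6, 10 and 12 had 67 to 80 genes above the mean and actin ratios of 1.71 to 2.13.

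The genes differed in how much they varied between tumours. The SD of log2(signal + 30) over the 12 osteosarcomas was 2.16 for Cox8b, 1.70 for Cox6a2 and 0.94 for Cox7a1, the highest of the 87 genes. Without osteosarcomas 6 and 9, a setting added after the data were seen, it was 1.18 for Cox8b, 0.97 for Cox6a2 and 0.71 for Cox7a1, ranks 1, 3 and 6 of the 87. Over all 12 it had a median of 0.34 over the other 84 genes, within 0.10 to 0.90, and of 0.43 over all genes tested. Next after the muscle-type subunits came Atp5md, Cox4i2 and Cox6b2, with SDs of 0.90, 0.86 and 0.70. Atp5md, a small ATP synthase subunit, had 2530 to 20662 with a median of 8900 in the osteosarcomas, against 9294 in mc3T3, and its highest values were in osteosarcomas 4 and 12. Cox4i2, an isoform known from lung and from low oxygen, had 29.3 to 468 with a median of 162, against 68.3 in mc3T3.

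At the other end, Ndufa10 had an SD of 0.0986, the lowest of all 11815 genes tested. Its signal was 4260 to 5619 with a median of 4803 across the 12 osteosarcomas, against 3778 in mc3T3. Ndufaf1 had an SD of 0.13 and Ndufa9 of 0.17, ranks 20 and 96 from the lowest. The tissue isoforms Cox6b2 and Cox8c, known from testis, had 52.1 to 359 and 170 to 362 in the osteosarcomas, against 77.6 and 310 in mc3T3. Cox7a2l, known for joining complexes III and IV, had 4574 to 12023 with a median of 8143, against 7844, and did not separate the groups.

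Cox6a2 had its highest signals in osteosarcomas 6 and 9, at 6845 and 1944, followed by osteosarcomas 3 and 8 at 822 and 658. The lowest were osteosarcomas 11 and 4 at 77.2 and 126, and mc3T3 had 197. Cox8b had 4682, 1098, 467 and 214 in osteosarcomas 6, 9, 3 and 8. Its other 8 tumours had 5.90 to 100 units, below the signal used for testing, and mc3T3 had 4.0. Both isoforms therefore had the same 4 tumours on top in the same order. Cox7a1 was high in osteosarcoma 6 alone, at 1206, while osteosarcomas 9, 3 and 8 had 340, 297 and 253.

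The ubiquitous partners did not follow that order. Cox6a1 had 34204 and 27670 in osteosarcomas 6 and 9, within its range of 26936 to 41243, against 35122 in mc3T3. Cox8a had 5493 and 4276 in the same tumours, and Cox7a2 32814 and 23788 within 15650 to 42183. Signals of different probe sets are not on a common scale, so isoform and partner are each set only against their own values on other arrays.

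**Figure D4:**
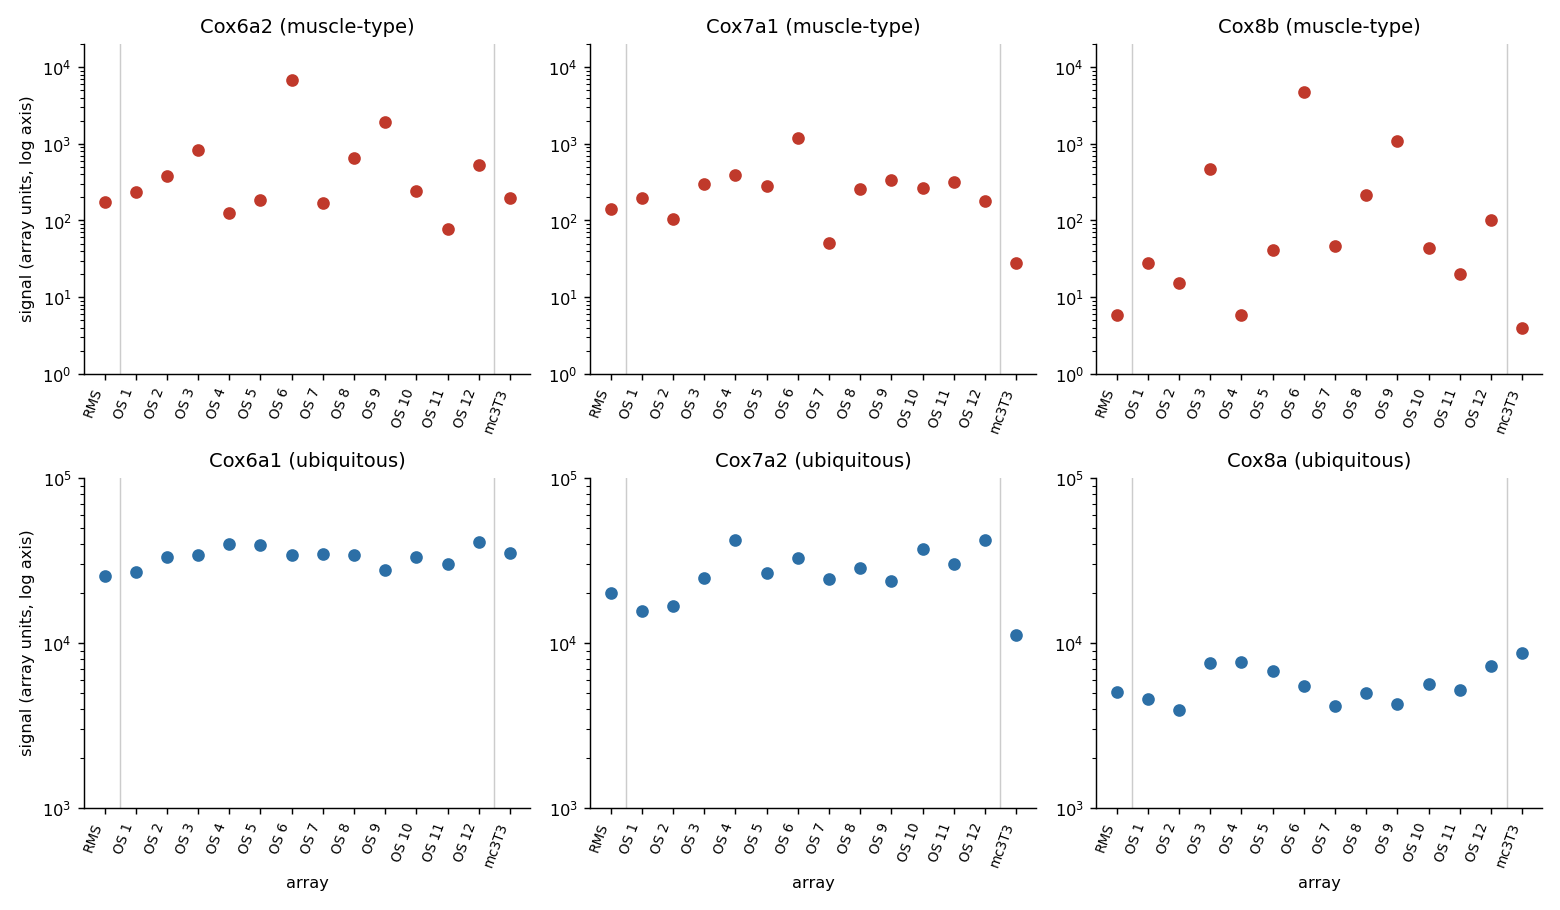
Signal (y axes, log scale, array units) of the muscle-type subunits Cox6a2, Cox7a1 and Cox8b (upper row) and of the ubiquitous Cox6a1, Cox7a2 and Cox8a (lower row) on each array (x axis; RMS is the tumour labelled rhabdomyosarcoma, OS an osteosarcoma). Cox6a2 and Cox8b peaked in OS 6 at 6845 and 4682, where Cox6a1 and Cox8a had 34204 and 5493.

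Markers of mature skeletal muscle, all 30 tested, were also highest in osteosarcomas 6 and 9. Their mean level was 13.32 and 12.20 in osteosarcomas 6 and 9, and 6.33 to 10.56 in the other 10. Acta1, skeletal actin, had 46907 and 32288 units in osteosarcomas 6 and 9 and at most 12295 in the rest, and Ckm, muscle creatine kinase, 30222 and 13664 against 9.70 to 2045. Because osteosarcomas 6 and 9 stand apart, relations were computed over the other 10 tumours, with 12 relations tested and p-values from 100000 permutations (two-sided, Benjamini-Hochberg).

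Cox6a2 rose with the muscle marker level (Pearson r = 0.960, adjusted permutation p = 0.00072; Spearman rho = 0.976, adjusted permutation p = 0.00036). Without osteosarcomas 3 and 8, which lay farthest from the median marker level, r was 0.915. Cox6a2 was also related to the level of 6 tested adipocyte markers (r = 0.885, adjusted permutation p = 0.00306; rho = 0.952, adjusted permutation p = 0.0006). Over these 10 tumours the muscle and adipocyte levels were related to each other (r = 0.874, rho = 0.927, unadjusted permutation p = 0.00081 and 0.00038), so the 2 marker sets cannot be told apart here.

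Cox8b passed for muscle markers by Pearson (r = 0.804, adjusted permutation p = 0.0142) and not by Spearman (rho = 0.648, adjusted permutation p = 0.183), and r was 0.489 without osteosarcomas 3 and 8, on which the relation rests. For adipocyte markers Cox8b had r = 0.673 (adjusted permutation p = 0.0997; rho = 0.624, adjusted permutation p = 0.183). Cox7a1 showed no such relation with muscle markers over these 10 tumours (r = -0.021, adjusted permutation p = 0.956; rho = -0.26, adjusted permutation p = 0.805). For Cox7a1 with adipocyte markers and for Cox6a1, Cox7a2 and Cox8a with either set, r lay between -0.20 and 0.11 and no relation passed. No letter of the identifiers held 6 of the 10 tumours, so no relation could be computed within a letter. Only 3 of 10 brown fat markers reached the tested signal.

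**Figure D5:**
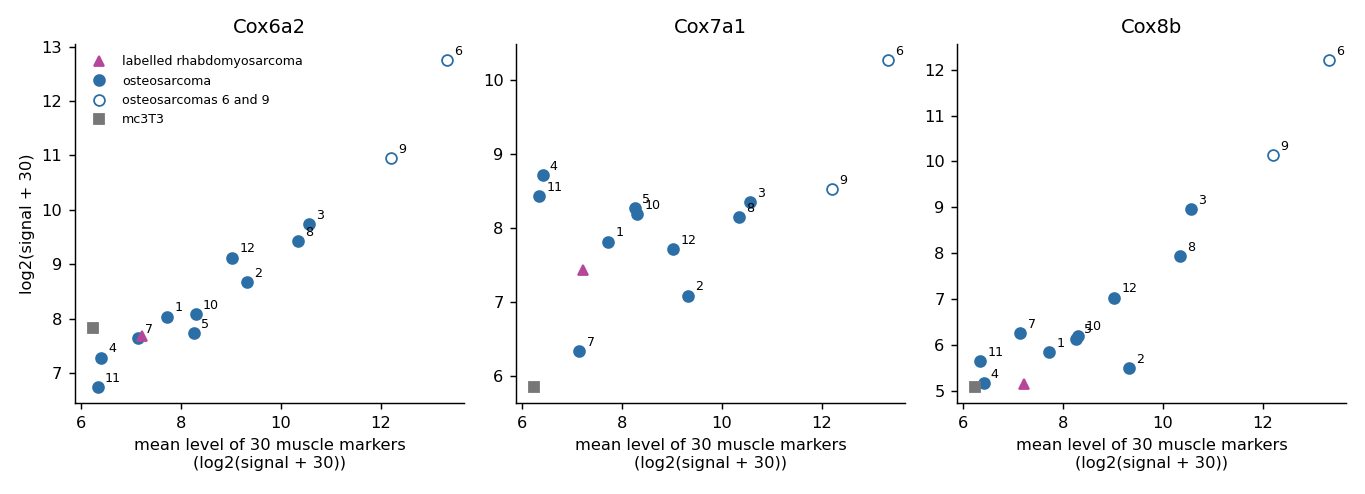
Level of Cox6a2, Cox7a1 and Cox8b (y axes, log2(signal + 30)) against the mean level of 30 skeletal muscle markers (x axes, same scale) in 12 numbered osteosarcomas, the tumour labelled rhabdomyosarcoma and mc3T3. Cox6a2 followed the markers over the 10 filled tumours (r = 0.960), Cox7a1 did not (r = -0.021), and osteosarcomas 6 and 9 are open circles.

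The second comparison sets the tumour labelled rhabdomyosarcoma against the 12 osteosarcomas. By the same limma test, 0 of the 87 genes were called higher and 0 lower, beside 1.19% and 1.76% of all genes. In 31 of the 87 the tumour lay below all 12 osteosarcomas, against 14.1% of all genes, and in 0 of the 87 above all 12, against 16.6%. At an unadjusted p under 0.05 there were 11 lower genes, against 8.03% of all genes, and 0 higher, against 7.95%. In all, 73 of 87 differences lay below 0, with a median of -0.41, beside 47.2% and a median of 0.05 over all genes. Of the 785 other bright genes, 37.7% lay above their osteosarcoma mean in this tumour, with a median deviation of -0.17, beside 16.7% and -0.40 for these genes without the muscle-type subunits. By the count against the osteosarcoma mean, 14 of 84 genes lay above it in this tumour, between the 4 of osteosarcoma 2 and the 16 of osteosarcomas 1 and 9. With quantile normalization, a variance trend or osteosarcoma 12 left out, 1 gene was called, Ndufa1 (adjusted p = 0.0498 without osteosarcoma 12).

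In complex I, 29 of 33 core and accessory subunits lay below 0, with a median of -0.45. Ndufa1, an accessory subunit encoded on the X chromosome, had 7270 in the tumour labelled rhabdomyosarcoma, against 12691 to 29022 with a median of 18342 in the osteosarcomas. The difference of -1.31 ± 0.36 (SE, adjusted p = 0.0734) came nearest to a call. Ndufb2 had 3349 against 5796 to 10882 with a median of 6823, a difference of -1.12 ± 0.34 (SE, adjusted p = 0.102). Ndufa10, so even among the osteosarcomas, had 2876 against 4260 to 5619 (difference -0.73 ± 0.23, SE, adjusted p = 0.111). In these 3 genes the tumour lay outside the osteosarcoma range. Ndufa6 was an exception, at 7684 against 3589 to 8106, above 11 of 12 osteosarcomas.

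The other complexes shared the direction, and the assembly factors did not. Median differences were -0.49 for complex II, -0.52 for complex III, -0.42 for ubiquitous complex IV and -0.56 for ATP synthase, against 0.03 for the 8 assembly factors. Sdhc had 2364 against 2555 to 5504, a difference of -0.87 ± 0.34 (SE, adjusted p = 0.214), while its further tested probe set differed by -0.18. Cox5b, of complex IV, had 13954 against 19135 to 31965, and Cox5a 10120 against 14146 to 33287. The ATP synthase subunits Atp5a1, Atp5b and Atp5g3 had 8997, 13194 and 17593, below lowest osteosarcoma values of 11064, 15901 and 22954. The muscle-type subunits were low too: Cox6a2 had 175, Cox7a1 143 and Cox8b 5.8 units, and of these only Cox8b lay below all 12 osteosarcomas, whose lowest signal, 5.90, was as dim.

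Measures that differed beside these counts were an actin 3' to 5' ratio of 1.24 in this tumour against 1.42 to 2.13 in the osteosarcomas, and an osteoclast marker level of 7.77 against 10.89 to 12.63. In mc3T3 they were 1.32 and 7.15. The Gapdh ratio did not differ in this way, at 0.787 in this tumour, 0.736 to 1.03 in the osteosarcomas and 0.783 in mc3T3. The macrophage marker level was 13.56 in this tumour against 11.42 to 13.26 in the osteosarcomas. The part of any of these in the result was not tested. The 2 comparisons share the 12 osteosarcomas, so a gene high in them leans above 0 in the first and below 0 in the second.

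Other mitochondrial genes were read from lists beside the respiratory chain. Of 17 tested genes of the tricarboxylic acid cycle, 11 lay above mc3T3 with a median of 0.29 and 13 lay below the osteosarcomas in the tumour labelled rhabdomyosarcoma with a median of -0.53. Pcx, pyruvate carboxylase, fell in the osteosarcomas to 74.8 to 345 units, against 857 in mc3T3 (difference -2.20 ± 0.50, SE, adjusted p = 0.00893). Idh3g, of the NAD-linked isocitrate dehydrogenase, passed the p threshold with a difference of 0.84 ± 0.25 (SE, adjusted p = 0.039), under the size for a call.

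Among 18 tested regulators of mitochondrial biogenesis, 1 rose and 1 fell against mc3T3, and 1 was lower in the tumour labelled rhabdomyosarcoma. Over all genes, 8.59% were called higher and 4.58% lower against mc3T3, and 1.76% lower in that tumour. Ppargc1b, a coactivator of mitochondrial genes, had 144 units in the tumour labelled rhabdomyosarcoma, 451 to 1488 with a median of 812 in the osteosarcomas and 221 in mc3T3. Both of its differences were called: the osteosarcomas exceeded mc3T3 by 1.83 ± 0.46 (SE, adjusted p = 0.016), and the tumour labelled rhabdomyosarcoma minus the osteosarcomas gave -2.35 ± 0.46 (SE, adjusted p = 0.0119). The related coactivator Pprc1 fell in the osteosarcomas, at 485 to 1082 units against 1970 in mc3T3 (difference -1.19 ± 0.37, SE, adjusted p = 0.0466), a call lost without any 1 of osteosarcomas 3, 4, 5, 6, 7, 9, 10 and 11 (adjusted p = 0.0528 to 0.0600). The factors Nrf1, Gabpa, Yy1 and Tfam differed from mc3T3 by -0.08, 0.37, 0.31 and 0.16, none called.

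Slc25a5, an ADP/ATP carrier of the inner membrane, had 10475 units in the tumour labelled rhabdomyosarcoma, 18800 to 28992 in the osteosarcomas and 10455 in mc3T3. It was called in both comparisons, at 1.11 ± 0.28 between osteosarcomas and mc3T3 (SE, adjusted p = 0.0158) and -1.11 ± 0.28 between the tumour labelled rhabdomyosarcoma and the osteosarcomas (SE, adjusted p = 0.0461). The second call was lost without any 1 of osteosarcomas 1 and 3 to 10 (adjusted p = 0.0513 to 0.0689). Of 9 tested genes of ATP export and uncoupling it was the only 1 called. The shares over all genes were 8.59% called higher against mc3T3 and 1.76% called lower in the tumour labelled rhabdomyosarcoma. Of 7 tested electron carriers and related genes 0 were called in either comparison. The 13 genes of the mitochondrial genome were not measured under these names.

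Many genes had more than 1 probe set. Of the 87 genes, 45 had 70 further tested probe sets, of which 48 had the brightest one's sign in the first comparison and 57 in the second. The median correlation with the brightest probe set over the 12 osteosarcomas was 0.826. Sdhd was a case of disagreement in size, with -0.61 by its brightest probe set and -1.58 by another in the tumour labelled rhabdomyosarcoma. Ndufv2 was another such case against mc3T3, at 0.34 by its brightest probe set and 2.03 and 1.42 by its further ones.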

How the data were processed

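Total RNA had been extracted with a column kit, labelled with biotin and hybridised to 14 one-colour arrays, per the labels' protocols. The deposited values are the signal (intensity) of 45101 probe sets on a linear scale, made with GCOS, as the submitters' processing notes name it; which version and which summary method it used is not given in the sources used here. Signals were set to a common trimmed mean of 500 on each array (2% off each end), and median signals were 67.1 to 111. No detection calls were used, so low signals are open to background, and the number of arrays limits the precision.

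Sample titles gave the groups; the description field calls every sample mc3T3. Symbols came from the platform annotation (34958 probe sets with 1 symbol, 932 with several genes, 9211 unnamed here), 34754 of them updated by Entrez identifier; 178 probe sets belonged to the 89 genes, and 10 with several symbols were not used. The 22479 probe sets that reached 200 units on any array were kept, and the brightest stood for each of 11815 genes. Values were log2(signal + 30), a scale that understates changes of low signals. Differences were tested with limma 3.58.1 in R 4.3.3 (lmFit and eBayes, 3 groups, two-sided, Benjamini-Hochberg over all genes), after the script was tested on simulated data. With 1 array each, the tumour labelled rhabdomyosarcoma and mc3T3 are assumed to vary as the osteosarcomas do, and p-values measure the spread between these samples, which may not be separate animals. No array duplicated another (0 identical columns, r at most 0.954).

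The members, lists and tests were chosen with earlier results of these data known. Named genes are the isoforms and their partners, called genes, those with the largest and smallest SD, the Sdh genes and up to 4 called genes of each list; others were added after their values were seen. Alternatives tried were quantile normalization, pseudocounts of 10 and 100, other filters, the mean of all probe sets, eBayes with a trend, subsets of tumours and leaving out each osteosarcoma.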

Additional observations from a re-analysis of the deposited data

How the results depend on the processing

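The number of genes called for osteosarcoma against mc3T3 was 5, and 3 with no filter on low signal (Atp5k, Uqcr10 and Ndufaf2), 3 with the m tumours alone (Atp5k, Cox7a2 and Sdhb), 0 with the c tumours alone (4 arrays) and 3 to 6 when each osteosarcoma was left out, the 3 without osteosarcoma 10 (Atp5k, Uqcr10 and Ndufaf2). For the tumour labelled rhabdomyosarcoma the 0 calls became 1 with quantile normalization, with a trend and without osteosarcoma 12 (Ndufa1 each time) and 2 with the mean of all probe sets (Atp5a1 and Atp5o); leaving out 1 osteosarcoma gave 0 to 1. Genes below all osteosarcomas in it numbered 31, and 50 with the 6 m osteosarcomas alone, where 21.1% of all genes did. The median differences kept their sign under all alternatives run, within 0.13 to 0.41 for osteosarcoma against mc3T3 and -0.49 to -0.21 for the tumour labelled rhabdomyosarcoma, both nearest 0 with the c tumours alone; without osteosarcomas 4 and 12, an alternative added after the data were seen, they were 0.24 and -0.32. With the c tumours alone Cox6a2 differed from mc3T3 by -0.055, and in the tumour labelled rhabdomyosarcoma Uqcr10 by 0.042 and Cox7a1 by 0.015. Ndufaf2, at 0.01 in that tumour, was -0.049 with quantile normalization, -0.11 with the m tumours alone and -0.034 to 0.044 when each osteosarcoma was left out (below 0 without osteosarcoma 1, 2 or 9). Over 23 alternatives the adjusted p against mc3T3 was 0.00455 to 0.140 for Atp5k (1 call lost), 0.0129 to 0.163 for Uqcr10 (2 lost), 0.0136 to 0.144 for Ndufa2 (6 lost), 0.0213 to 0.233 for Sdhb (8 lost) and 0.0241 to 0.118 for Ndufaf2 (3 lost). Acad9 lost 8, Pprc1 12, Ppargc1b 1, Slc25a5 2 and Pcx 1 of 22 (adjusted p = 0.171 with the c tumours alone; it was not tested under the filter of 200 units on 7 arrays) against mc3T3, and Slc25a5 lost 14 and Ppargc1b 1 in the tumour labelled rhabdomyosarcoma. Of the marker relations, 3 passed, and 4 over all 12 osteosarcomas. Over all 12, Cox7a1 had r = 0.515 with muscle and 0.384 with adipocyte markers, Cox6a1 -0.16 and Cox8a -0.12 with muscle markers; Cox8a with muscle markers was -0.12 without osteosarcomas 3 and 8, and Cox6a1 with adipocyte markers 0.41 with quantile normalization. The causes were not tested. No paired analysis was possible because the labels match no tumour with another tumour or with mc3T3.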
